A study of Mus musculus with 4 samples.

Results

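The cells described here are circulating CD8+ T cells that carried an effector/memory program but no transcript of the terminal-effector genes Klrg1, Cx3cr1 and Zeb2. They were picked from droplet-based single-cell RNA sequencing of blood by unique molecular identifiers (UMIs), the tags that mark single captured RNA molecules. A cell was taken when 200 to 2900 genes were detected, when it had at least 1 UMI of Cd8a or Cd8b1, at least 1 of Cd3d, Cd3e or Cd3g and 0 of Cd4, and when at least 3 of the 6 genes Lgals1, S100a4, S100a6, Ccl5, Cd44 and Cxcr3 were detected with 0 UMIs of Klrg1, Cx3cr1 and Zeb2. This gave 307 cells of 2106 CD8+ T cells and of 5276 cells kept from 5434 deposited, and they are called non-terminal effector/memory cells below. The name rests on UMIs alone, and at the depth of these libraries 0 UMIs do not show that a transcript was absent.

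The libraries came from T cells enriched from the blood of C57BL/6 mice bearing MC-38 tumors, a mouse colon carcinoma line, on day 18 after the tumor cells were injected under the skin. The mice of the MC-38 experiments were female and 6 to 8 weeks old at the start. The groups were untreated mice, mice given anti-PD-L1 (a checkpoint-blocking antibody) into the peritoneum on days 10, 13 and 17, mice given agonistic anti-OX40 with the TLR9 agonist CpG near the tumor on day 7, and mice given both treatments (PDOX). Each group had 1 library, with 4 mice behind the 4 samples by the series' design text, so that mouse, library and treatment cannot be told apart and no test between treatments was possible. Sets of 4 values follow 1 order throughout, which starts with untreated, goes on with anti-PD-L1 and then anti-OX40/CpG, and ends with PDOX.

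Naive CD8+ T cells circulate between blood and lymph nodes and depend on receptors such as Ccr7 for lymph node entry. After antigen encounter they switch on cytotoxic granule genes, chemokines and receptors for inflamed tissue, and part of them become short-lived terminal effectors, for which Klrg1, Cx3cr1 and the transcription factor Zeb2 are common markers. Other cells keep Il7r, Tcf7 and the capacity to form memory.

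The non-terminal cells numbered 20, 54, 113 and 120 in the 4 libraries, and made up 6.17%, 8.27%, 16.8% and 26.3% of the CD8+ T cells there. The exact Clopper-Pearson 95% intervals, which cover counting error only, ran from 3.81% to 9.37%, from 6.27% to 10.7%, from 14.0% to 19.8% and from 22.3% to 30.6%. The share was thus highest in the PDOX library and next highest in the anti-OX40/CpG library, and the intervals of the untreated and anti-PD-L1 libraries overlapped. When cells were thinned to 750 UMIs and those with fewer were left out, 247, 522, 535 and 378 CD8+ T cells remained. The shares were then 2.43%, 7.28%, 14.6% and 30.2%. CD8+ T cells that passed the same 6-gene limit but had UMIs of Klrg1, Cx3cr1 or Zeb2, here called terminal-marker cells, made up 2.78%, 5.36%, 7.73% and 21.3% of the CD8+ T cells. Thinned, their shares were 1.21%, 2.30%, 4.11% and 14.6%, and without cells with at least 2 markers of another blood lineage 1.11% in the untreated library. Of the CD8+ T cells with at least 3 of the 6 genes, the non-terminal cells were 69.0%, 60.7%, 68.5% and 55.3%. The intervals ran from 49.2% to 84.7%, from 49.7% to 70.9%, from 60.8% to 75.5% and from 48.4% to 62.0%. Only that of the anti-OX40/CpG library lay wholly above 50%. In the PDOX library the portion was 50.0% where UMIs of both Cd8a and Cd8b1 were required, and 50.8% without the top doublet scores. It was 60.0% there without cells with other-lineage UMIs, 57.5% with at least 2 of the 6 genes and 55.3% with at least 4. Thinned, the portion was 66.7%, 76.0%, 78.0% and 67.5% in the 4 libraries. The thinned intervals of the treated libraries started at 61.8%, 68.6% and 59.8%, and that of the untreated library at 29.9%.

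**Figure D1:**
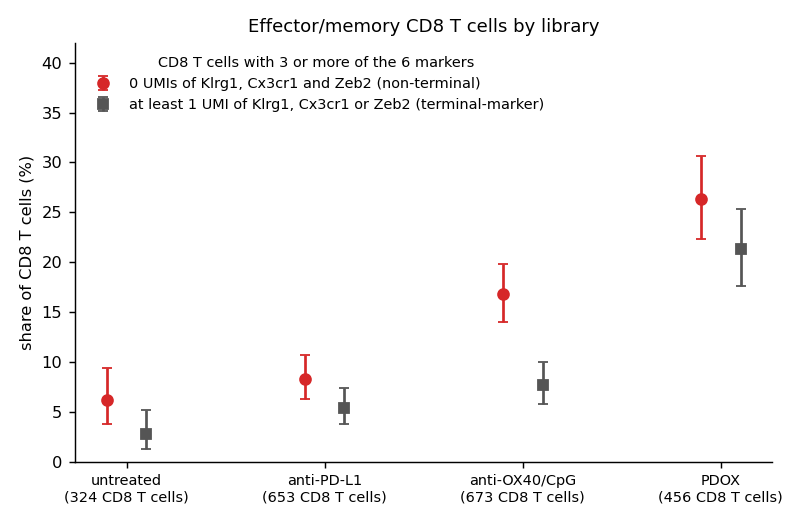
Percent of CD8+ T cells in each library that were non-terminal effector/memory cells or terminal-marker cells, with 95% Clopper-Pearson intervals for counting error only (1 library per treatment). The non-terminal share goes from 6.17% in the untreated to 26.3% in the PDOX library, and the terminal-marker share from 2.78% to 21.3%.

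The plot of shares by library shows both subsets at their highest percent in the PDOX library. The libraries held between 2392650 and 4969885 deposited UMIs. The non-terminal cells had a median of 2405, 3215, 2068 and 1979.5 UMIs per cell, against 1573.5, 1754, 1695 and 1500.5 in CD8+ T cells with at most 1 of the 6 genes. Barcodes were shared between libraries 14 times over all pairs, and 3 of these belonged to a non-terminal cell in 1 of the libraries and to another cell in the other. UMIs of at least 2 markers of another blood lineage were found in 6 of 20, 23 of 54, 7 of 113 and 10 of 120 non-terminal cells, and without all such cells the share was 5.17%, 5.74%, 16.5% and 25.9%. In the PDOX library, 21 of the 120 cells (17.5%) lay in the top 5% of doublet scores, against 1.05% of its cells with at most 1 of the 6 genes. Without cells of the top scores, the PDOX share was 23.0%.

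The rule used the 6 marker genes, so that their values are a description of the choice. Lgals1, which encodes galectin-1, was detected in 93.2% of the 307 cells, and Ccl5, a chemokine of effector and memory cells, in 92.8%. S100a6 was found in 85.3% and S100a4 in 58.3%. The chemokine receptor gene Cxcr3 was found in 46.9% and Cd44 in 28.3%, so that the 6 genes did not contribute equally to the gate. Cd8b1 was detected in 93.2% and Cd8a in 75.2%.

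Ccl5 differed between libraries, at 95.9, 159, 477 and 425 UMIs per 10000 (of the UMIs of all genes but mitochondrial, ribosomal and hemoglobin genes, the scale of every level below). It was more abundant in the libraries that received anti-OX40/CpG, with or without anti-PD-L1. The levels were 20.0, 49.2, 30.3 and 35.0 for Lgals1, 12.1, 23.1, 26.1 and 30.6 for S100a6, and 4.04, 18.7, 15.9 and 16.9 for S100a4, of whose 20 untreated UMIs 11 lay in 1 cell. Cxcr3 was at 3.84, 2.59, 2.03 and 4.59 and Cd44 at 1.62, 1.55, 1.55 and 1.29, without the low untreated value of the other 4 genes.

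The markers of the label, Cd8a, Ccl5, Cxcr3 and S100a6, are genes of the rule, so the label was checked against defining genes of other cells that the rule did not use. Ncr1, a defining NK cell gene, and Zbtb16, the factor of NKT and other innate-like T cells, had 0 UMIs in the non-terminal cells of all 4 libraries. The 6 NK cell markers together were at 1.41, 1.38, 1.43 and 0.209 UMIs per 10000. In CD8+ T cells with at most 1 of the 6 genes of the rule they were at 0.210, 0.296, 0.226 and 0.533. The non-terminal cells were thus higher in NK cell markers in every library but PDOX. The 5 NKT and innate-like T markers were at 0.404, 0.115, 0.437 and 0.585, against 0.303, 0.296, 0.467 and 0.426. Of 7 listed gamma-delta T markers, only 1 was among the genes counted, so that this lineage could not be checked. The 8 monocyte markers together were at 9.09, 6.38, 8.87 and 5.55, against 4.62, 3.98, 2.31 and 2.88 in CD8+ T cells with at most 1 of the 6 genes. They were thus higher in the non-terminal cells of every library. The list holds Ccr2, which effector/memory T cells also transcribe, and Cst3, of which 86 of 150 UMIs in the anti-OX40/CpG library came from 1 cell. No non-terminal cell had 10 or more UMIs of Lyz2, the lysozyme gene of monocytes and neutrophils, and the highest had 3. Of 8 listed B cell markers, 6 were among the genes counted, while Ighm and Igkc were not. The 6 together were at 3.03, 1.67, 9.94 and 3.92, and in the anti-OX40/CpG library 186 of 189 UMIs of Cd74 lay in 1 cell.

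The boundary between these cells and the other CD8+ T cells was a cut through a range. Among CD8+ T cells with no UMI of Klrg1, Cx3cr1 or Zeb2, 763, 585 and 196 cells had 0, 1 and 2 of the 6 genes, and 88, 130, 75 and 14 cells had 3, 4, 5 and 6. Just outside the limit, CD8+ T cells with 2 of the genes had detected Ccl5 (86.4%) and Lgals1 (68.9%) far more often than S100a6 (18.4%), Cd44 (11%), Cxcr3 (10.5%) or S100a4 (4.82%). Klrg1, Cx3cr1 or Zeb2 was found in 1.93%, 2.5%, 14.0%, 34.8%, 40.1%, 35.9% and 54.8% of CD8+ T cells with 0 to 6 of the genes. The jump in terminal-effector genes thus lay between 1 and 3 detected genes.

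Genes outside the rule differed along the same range, given here without a test as levels in cells with 0, 1, 2, 3, 4 and 5 or 6 of the genes, all libraries together. Nkg7, a protein of cytotoxic granules, stood at 11.2, 15.0, 17.6, 26.9, 43.4 and 55.6 UMIs per 10000. Id2, a transcriptional regulator that favors effector differentiation, stood at 1.94, 2.19, 2.69, 4.50, 12.1 and 16.7. Both were higher at each step, with the largest step between 3 and 4 genes. Gzmb (granzyme B) was near 0 up to 2 genes, at 0.069, 0.048 and 0.050, and then at 1.22, 3.23 and 7.07. Klrk1, which encodes the activating receptor NKG2D, was higher at each step, at 0.087, 0.306, 0.754, 2.43, 4.47 and 4.77.

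Genes of naive and long-lived cells did not drop at the same point of this range. Lef1, a transcription factor of naive T cells, was already lower at 2 genes than at 0, with levels of 9.22, 8.45, 5.35, 3.81, 2.37 and 1.48. Il7r, the interleukin-7 receptor, was at 5.88, 5.51, 4.87, 5.98, 3.72 and 2.30. Il7r and the survival gene Bcl2 (7.91, 7.68, 8.32, 8.36, 4.93 and 2.34) were thus still at the level of cells with 0 or 1 of the genes when 3 were detected, and lower from 4 genes on. The non-terminal cells with exactly 3 genes (8, 15, 34 and 31 per library) therefore resembled the cells below the limit in these genes more than those with 5 or 6 genes did. Ribosomal protein genes took 46.0%, 46.0%, 45.1%, 44.1%, 35.9% and 27.2% of all UMIs along the same range. In the PDOX library they were already lower at 2 genes, at 45.8%, 44.4%, 39.0%, 38.5%, 32.0% and 26.3%, and the libraries contributed unequally along the range. The median UMI count per cell was 1550, 1801, 1946.5, 2185.5, 2010 and 2509.

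**Figure D2:**
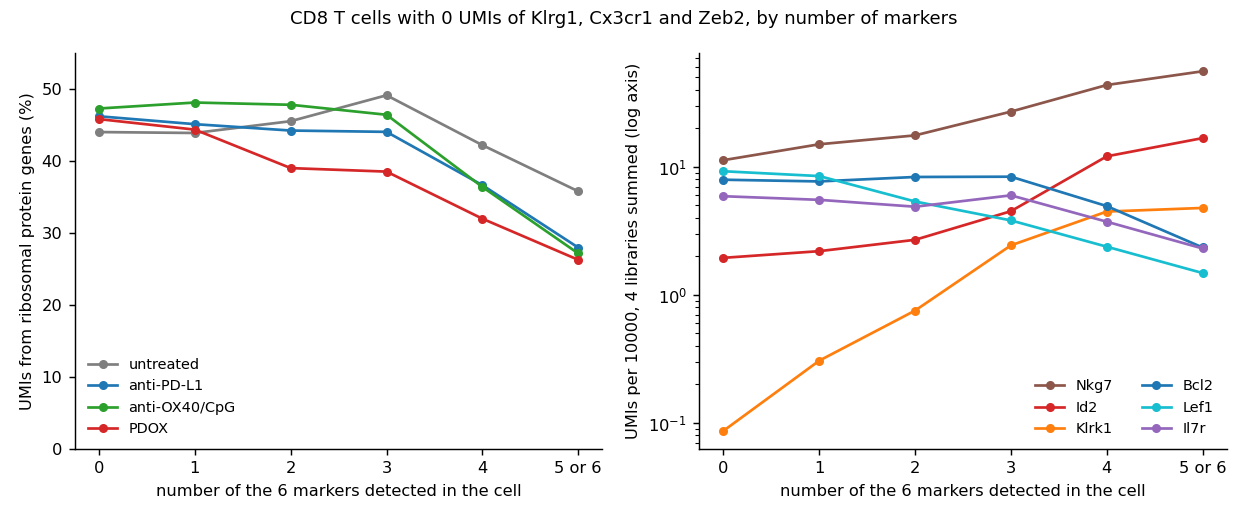
CD8+ T cells without Klrg1, Cx3cr1 and Zeb2, by the number of the 6 marker genes detected: left, percent of all UMIs from ribosomal protein genes, 1 line per library; right, level (UMIs per 10000, log axis, all libraries summed) of 6 genes outside the rule, 1 line per gene. From 3 genes on, which is the range of the non-terminal cells, Nkg7, Id2 and Klrk1 are higher and Bcl2, Il7r and Lef1 lower with more genes, as is the ribosomal percent, from 44.1% at 3 genes to 27.2% at 5 or 6 over all libraries.

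The plot by number of marker genes sets Lef1, already lower at 2 genes, beside Bcl2 and Il7r, which are lower from 4 genes on.

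To find what set the non-terminal cells apart from CD8+ T cells with few of the marker genes, their counts were summed per library and compared with those of the 1378 CD8+ T cells with at most 1 of the 6 genes (276, 503, 409 and 190 cells), called marker-low cells here. Gzmb, Lgals3, Gzma, the NK receptor genes Klrc2, Klrc1 and Klrk1, the chemokine gene Ccl4 and the chemokine receptor gene Ccr2 were each higher by more than 4 on the log2 scale, and Ccr9, Ly6k, Igfbp4 and Lef1 were lower. Of 4003 genes tested with edgeR's quasi-likelihood test with the library as a block, 560 (14.0%) passed a Benjamini-Hochberg adjusted p under 0.05, of which 297 (7.42%) were higher and 263 (6.57%) lower. The 15 genes of the rule were left out of the test. Klrg1, Cx3cr1 or Zeb2 was found in 15 of the 778 marker-low cells with 0 and in 15 of the 600 with 1 of the 6 genes. Without these cells, 542 genes were called. Of all genes tested, 14.0% were higher and 15.6% lower in each of the 4 libraries. The count was 355 without the anti-OX40/CpG library and between 381 and 627 without each of the other libraries.

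Granule genes were led by Gzmb. It stood at 1.41, 3.68, 5.01 and 3.72 UMIs per 10000 in non-terminal cells and at 0, 0.0683, 0.0452 and 0.142 in marker-low cells. Every library had the higher level in the non-terminal cells, with a log2 fold change of 5.91 (SE 0.26, adjusted p = 2.86e-29). Gzmb was detected in 28.7% of the non-terminal and in 0.943% of the marker-low cells, whose pooled median depths were 2206 and 1667.5 UMIs.

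Gzma (granzyme A) was at 0.808, 12.5, 5.57 and 7.22 against 0.233, 0.182, 0.286 and 0.320 (log2 fold change 4.86, SE 0.22, adjusted p = 1.24e-28). In the anti-PD-L1 library, 105 of its 218 Gzma UMIs came from 1 cell. Gzmm was at 3.23, 2.53, 1.59 and 1.67 against 0.0233, 0.0911, 0.181 and 0.355 (log2 fold change 3.86, SE 0.31, adjusted p = 1.23e-16), and it was the granzyme with its highest level in the untreated library. Nkg7 was at 27.1, 35.9, 46.2 and 48.7 against 11.8, 12.5, 13 and 16.5, a log2 fold change of 1.58 (SE 0.11, adjusted p = 1.23e-18). Prf1 (perforin) was sparse in non-terminal cells, at 0.404, 0.230, 0.318 and 0.334, and did not reach the count needed for the test. Gzmk, likewise below that count, was at 0.202, 0.747, 3.26 and 2.63 in non-terminal cells and at most 0.0753 in marker-low cells. Genes near 0 in both subsets were not tested, and a gene near 0 in marker-low cells was tested only where it was higher in the non-terminal cells, so that the counts and medians of lists below are a description of the genes that passed. Of 13 listed granule genes, 8 were tested, 7 rose and none fell. Their median log2 fold change was 1.61, against -0.02 over all genes tested. Of the 7, Srgn was no longer called without the anti-OX40/CpG or PDOX library and Ctsw without the anti-PD-L1 library. UMIs of at least 1 of Gzma, Gzmb and Gzmk were found in 142 of the 307 cells (46.3%), and in 30%, 40.7%, 46.0% and 51.7% by library. Gzmm, not counted there, was found in 10 of 20, 14 of 54, 22 of 113 and 20 of 120 cells.

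NK receptor genes, which memory and effector CD8+ T cells take up after activation, rose in 6 of the 6 tested of 12 listed, a count that the filter on low counts partly fixes. Klrk1 was at 2.02, 4.25, 3.46 and 4.89 against 0.0233, 0.0911, 0.482 and 0.213 (log2 fold change 4.10, SE 0.24, adjusted p = 4.05e-23). Klrc1, which encodes the inhibitory receptor NKG2A, was at 0.808, 2.99, 2.23 and 2.59 against 0.0466, 0.0569, 0.196 and 0.107 (log2 fold change 4.44, SE 0.28, adjusted p = 2.29e-21). Both genes separated the subsets in each of the 4 libraries. Klrc2, an activating relative, rose by 4.79 (SE 0.45, adjusted p = 1.08e-13) on the log2 scale, Klre1 by 3.57 (SE 0.50, adjusted p = 3.84e-08) and Cd160 by 2.24 (SE 0.29, adjusted p = 7.31e-09). Klrd1, the CD94 partner chain, was already abundant in marker-low cells (4.29, 4.58, 5.35 and 4.23) and stood at 3.03, 8.39, 5.53 and 7.27 in the non-terminal cells, where the untreated library went the other way. Its log2 fold change of 0.47 (SE 0.13, adjusted p = 0.00774) was not called without the anti-PD-L1 or the PDOX library.

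Receptors and integrins for tissue entry rose in 6 of 10 tested genes of 14 listed, and Ccr9 fell. Ccr2, the receptor for monocyte chemoattractant chemokines, was at 2.22, 2.01, 1.71 and 2.38 against 0.0933, 0.0569, 0.121 and 0.178 (log2 fold change 4.29, SE 0.29, adjusted p = 1.03e-19). Itgb1, the integrin beta-1 chain, was at 2.02, 4.25, 2.98 and 5.01 against 0.280, 0.353, 0.708 and 0.568 (log2 fold change 2.89, SE 0.19, adjusted p = 1.17e-20). The ranges of the 4 libraries did not overlap between the subsets for either gene. How many of all genes tested had ranges apart was not counted, here and below. Cxcr6, a chemokine receptor of tissue-homing and liver-resident T cells, rose by 2.46 (SE 0.19, adjusted p = 4.67e-17) on the log2 scale and Itgal by 0.93 (SE 0.16, adjusted p = 1.23e-05). Itga4 rose by 0.53, but not without the anti-OX40/CpG or the PDOX library, and in the untreated library it was lower in the non-terminal cells (1.01 against 2.12). Ccr9, the gut-homing receptor that naive CD8+ T cells also carry, was at 0, 0.172, 0 and 0.0835 against 1.49, 1.13, 1.28 and 0.604 (log2 fold change -3.79, SE 0.43, adjusted p = 8.98e-11). The chemokine gene Ccl4 was at 2.42, 1.38, 4.69 and 1.42 against 0.210, 0.0114, 0.136 and 0.249 (log2 fold change 4.44, SE 0.28, adjusted p = 3.30e-21).

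Lymph node homing genes fell in 5 of 6 tested of 7 listed, with a median log2 fold change of -0.89. Ccr7 stood at 2.63, 1.78, 1.67 and 1.38 in non-terminal and at 6.79, 5.43, 5.08 and 4.55 in marker-low cells (log2 fold change -1.57, SE 0.15, adjusted p = 1.38e-13). Klf2, a factor of quiescent and recirculating T cells, was at 16.2, 11.7, 12 and 14.4 against 29.3, 21.1, 18.9 and 23.9 (log2 fold change -0.74, SE 0.11, adjusted p = 1.63e-07). S1pr1, needed for exit from lymph nodes, was at 1.82, 1.95, 2.94 and 1.92 against 3.57, 3.43, 4.49 and 2.52 (log2 fold change -0.62, SE 0.15, adjusted p = 0.00186). Each of the 3 genes was lower in the non-terminal cells of every library, and Ccr7 and Klf2 did not overlap between the subsets.

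Among transcription factors, 7 of 10 tested naive and memory-stem genes (12 listed) fell and Ikzf2 rose, while the 6 effector genes that passed the filter on low counts (12 listed) rose, among them Bhlhe40 and Hopx, which passed it through the non-terminal cells. Id2 was at 8.68, 10.9, 9.90 and 14.6 against 2.12, 1.83, 1.99 and 2.81 (log2 fold change 2.39, SE 0.12, adjusted p = 5.43e-26). Tcf7, the factor of naive and memory-forming cells, was at 3.84, 3.85, 2.46 and 2.38 against 7.23, 6.16, 5.42 and 5.93 (log2 fold change -0.98, SE 0.13, adjusted p = 2.18e-08). Lef1 was at 4.24, 2.64, 2.39 and 2.0 against 9.47, 9.03, 8.45 and 8.17 (log2 fold change -1.74, SE 0.14, adjusted p = 4.95e-17). The subsets did not overlap across libraries for Id2, Tcf7 or Lef1. Bhlhe40, a regulator of effector cytokines and mitochondrial function, rose by 4.76 (SE 0.52, adjusted p = 2.58e-11) from a level of at most 0.0355, and Hopx by 3.24 (SE 0.37, adjusted p = 1.08e-10). Ikzf2 (Helios) was at 0.202, 2.18, 1.87 and 1.67 against 0.699, 0.421, 0.392 and 0.817, higher in the 3 treated libraries and lower in the untreated one (log2 fold change 1.74, SE 0.24, adjusted p = 2.20e-08). Runx3 passed at an adjusted p of 0.0458 with a log2 fold change of 0.45 and did not pass when any single library was left out. Batf was called with a log2 fold change of 0.85 and lost the call without the anti-OX40/CpG or the PDOX library.

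Memory-associated receptors were mixed, with 3 of 9 tested genes higher and 2 lower. Il7r was at 4.04, 3.51, 4.05 and 3.80 against 6.53, 5.07, 5.95 and 5.72 (log2 fold change -0.55, SE 0.13, adjusted p = 0.000875), a nearly even level over the treatments in the non-terminal cells. Il2rb, the chain shared by the interleukin-2 and interleukin-15 receptors, was at 3.64, 1.78, 3.38 and 2.63 against 0.466, 0.706, 0.904 and 0.604 (log2 fold change 1.95, SE 0.18, adjusted p = 1.38e-13). Cd27, a costimulatory receptor lost late in effector differentiation, was at 5.05, 4.25, 4.77 and 4.59 against 5.04, 4.16, 4.29 and 4.51, with a log2 fold change of 0.09 (SE 0.12, adjusted p = 0.706). The Il7r call was lost with DESeq2, without cells with other-lineage UMIs and without cells with 2 markers of another lineage, with a smallest change of -0.38. The cells thus had more Il2rb than marker-low cells, and a Cd27 level that differed from theirs by less than the test could call. Bcl2 was at 10.1, 4.48, 4.73 and 4.47 against 9.35, 7.80, 6.72 and 8.38, lower in the 3 treated libraries only (log2 fold change -0.55, SE 0.13, adjusted p = 0.000875). Il18r1 (2.04, SE 0.21, adjusted p = 3.97e-12) and Cd28 (0.84, SE 0.14, adjusted p = 2.28e-06) were higher by these log2 fold changes.

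**Figure D3:**
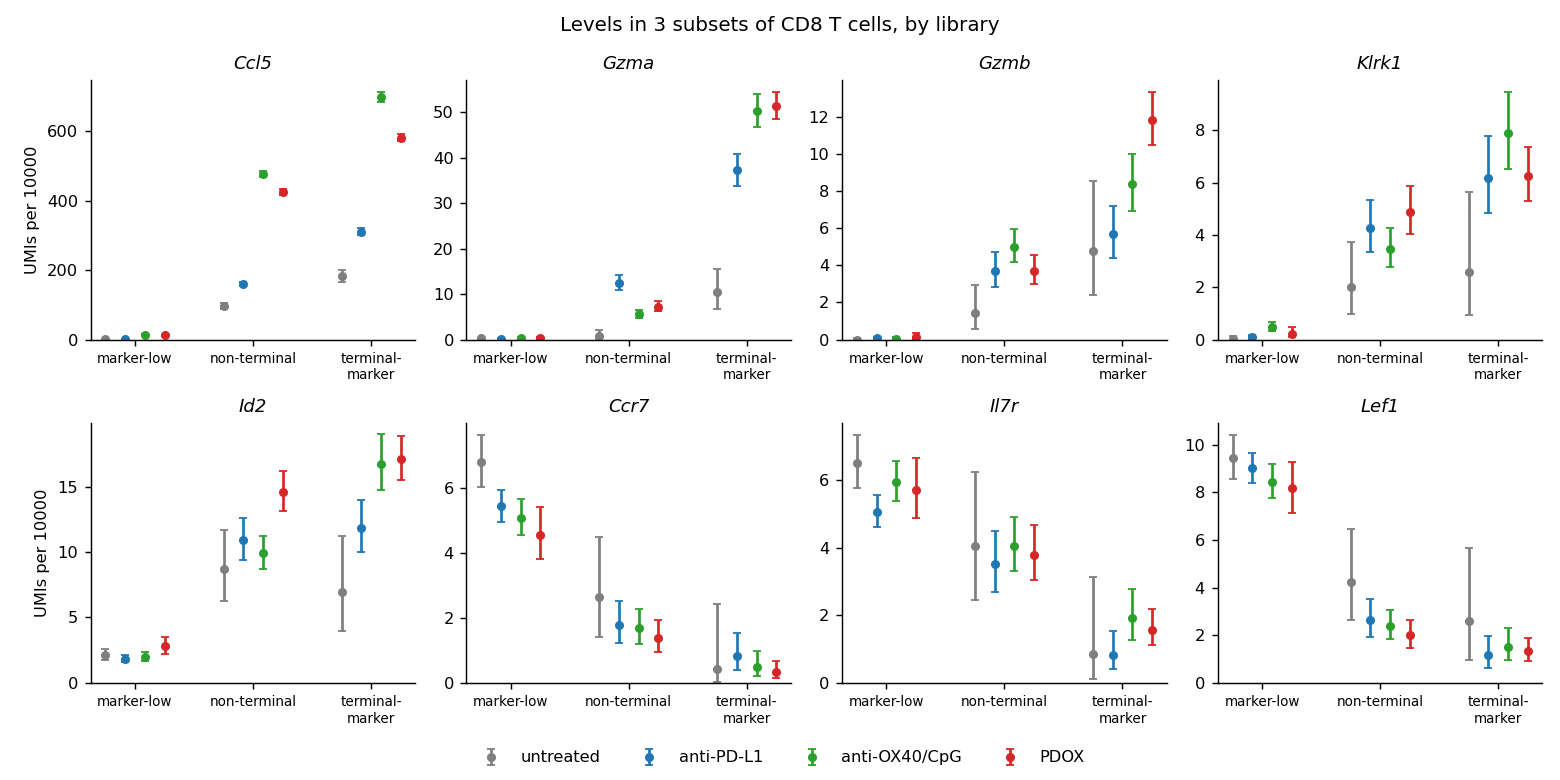
Level (UMIs per 10000) of 8 genes in marker-low, non-terminal and terminal-marker cells; each point is 1 library with its exact 95% Poisson interval for counting error only. Gzma, Gzmb, Klrk1 and Id2 lie above the marker-low cells in every library, Ccr7, Il7r and Lef1 lie below them, and Ccl5 is a gene of the rule.

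In the plot of levels by library and subset, Ccr7, Il7r and Lef1 of the non-terminal cells lie between those of the other subsets in each library. The untreated terminal-marker subset held only 9 cells, of which 3 had 10 or more UMIs of Lyz2. S100, annexin and cytoskeletal genes, whose products serve migration and membrane repair, rose in 12 of 15 tested genes (16 listed) and fell in 1. Lgals3 (galectin-3) was at 3.43, 9.94, 4.41 and 5.60 against 0.0699, 0.262, 0.0603 and 0.178 (log2 fold change 5.40, SE 0.20, adjusted p = 7.98e-33), although 16 of its 17 UMIs in the untreated library came from 1 cell. Anxa2 rose by 3.27 (SE 0.21, adjusted p = 4.33e-21), Vim by 1.52 (SE 0.13, adjusted p = 7.61e-16) and S100a10 by 1.37 (SE 0.12, adjusted p = 1.57e-14) on the log2 scale. Of 11 tested naive T cell genes (13 listed), 10 fell, with a median of -1.57. Igfbp4 was at 0.404, 1.44, 0.835 and 0.376 against 4.48, 5.34, 4.99 and 7.14 (log2 fold change -2.77, SE 0.20, adjusted p = 1.23e-18), and Dapl1 at 3.23, 3.33, 3.86 and 2.09 against 11.4, 11.9, 13.4 and 9.34 (log2 fold change -1.87, SE 0.13, adjusted p = 1.89e-19).

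Other large decreases that held in the same direction in all 4 libraries were in Ly6k (-3.77), Gm43698 (-3.24), Rrad (-2.16), Tmem108 (-2.16), 5730508B09Rik (-2.05), Il6st (-2.00), Als2cl (-1.92) and Ppic (-1.91). Bcl2a1d, of the anti-apoptotic Bcl2a1 gene group, rose by 3.88 (SE 0.37, adjusted p = 1.94e-13), and its reads may be shared with near-identical copies of the same family. Of 8 tested interferon-stimulated genes, Ifitm1 was called. Ifitm1 was at 0, 17.5, 5.01 and 9.10 against 0, 0.603, 0.0904 and 0.0711 (log2 fold change 5.24, SE 0.20, adjusted p = 7.98e-33), a gene carried by 12, 9 and 22 cells of the 3 treated libraries, with 61 of the 126 UMIs of the anti-OX40/CpG library in 1 cell. Glycolysis genes rose in 2 of 9 tested, T cell receptor signalling genes in 1 of 11 with 1 lower, and costimulatory receptors in 1 of 5. Over all genes tested, 7.42% were higher and 6.57% lower, so that these few calls do not set the lists apart. Of 5 tested serpin and cathepsin genes, 4 rose (Ctsd, Cst7, Cst3 and Ctsb). Cst3 moved with the cell named above, with a log2 fold change of 0.98 that became 0.32 without the anti-OX40/CpG library. H2-Aa, an MHC class II gene of B cells and myeloid cells, was called at 1.35, with 54 of its 56 UMIs in the anti-OX40/CpG library in 1 cell. Of 6 tested cell cycle genes, Hmgb2 and Cenpa rose and Tubb5 fell, the latter 2 not without the anti-PD-L1 (Cenpa) or the anti-OX40/CpG library (Tubb5).

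**Figure D4:**
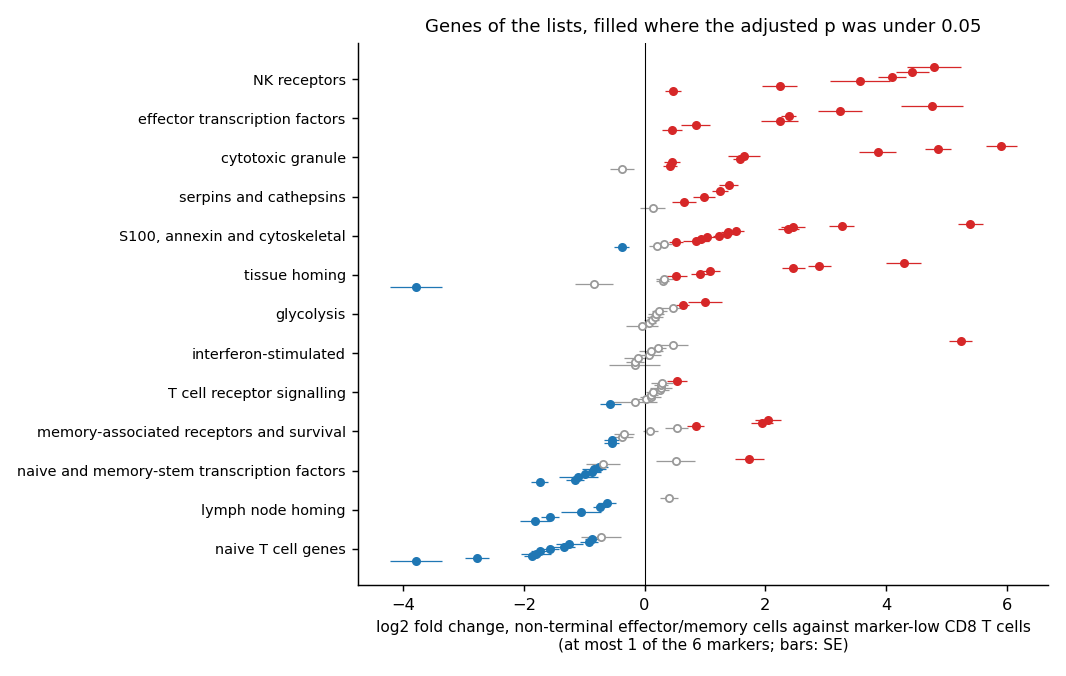
Log2 fold change of the tested genes of 13 lists in non-terminal against marker-low cells; each point is 1 gene with its SE, and filled points were called at an adjusted p under 0.05 (red higher, blue lower). The 6 NK receptor genes lie above 0, and the 11 naive T cell genes below it, 10 of them filled.

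The plot of log2 fold changes by list orders the lists from NK receptors at the top to naive T cell genes at the bottom. Ribosomal protein genes, which were left out of the levels and tests above, took 44.4%, 36.0%, 37.6% and 31.4% of all UMIs in non-terminal cells, 44.0%, 45.7%, 47.7% and 45.0% in marker-low cells and 24.4%, 24.8%, 27.0% and 24.1% in terminal-marker cells. The non-terminal cells were thus below the marker-low cells in the 3 treated libraries and above the terminal-marker cells in all 4, of which the untreated one held 9 terminal-marker cells. When all genes were tested together, 56 of 94 ribosomal genes were lower than in marker-low cells and 1 higher.

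To ask what set these cells apart from CD8+ T cells with the terminal-effector transcripts, they were compared with the 193 terminal-marker cells in the 3 treated libraries (35, 52 and 97 cells), because the untreated library held 9 such cells. Dapl1, Ltb, Il7r, Ccr7 and Tcf7 were higher in the non-terminal cells, and Gzma, Klre1, Gzmb and the cell cycle gene Stmn1 were lower. Of 3186 genes tested, 78 (2.45%) were called by the same test, 45 (1.41%) higher and 33 (1.04%) lower, while 17.9% of all tested were higher and 15.2% lower in each of the 3 libraries. With ribosomal, mitochondrial and hemoglobin genes kept, 182 were called, 138 of them higher, so that the higher part went from 57.7% to 75.8%, and 83 of 93 ribosomal genes were among the higher ones. The calls depended on single libraries, with 36 without the anti-OX40/CpG library, 52 without PDOX and 123 without anti-PD-L1. Without the pairing of subsets by library, 2 genes were called. With at least 4 marker genes, which left 39, 79 and 89 non-terminal cells, 8 genes were called.

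The terminal-marker cells of the untreated and anti-PD-L1 libraries also held monocyte transcripts. The 8 monocyte markers were at 281, 136, 5.34 and 6.52 UMIs per 10000 in terminal-marker cells, and the 6 NK cell markers at 84.7, 34.7, 4.59 and 0.511. Lyz2 had 10 or more UMIs in 3 of 9 and 6 of 35 terminal-marker cells of these libraries and in 0 of the others. Zeb2 and Cx3cr1 are themselves transcribed in monocytes, and the part of these transcripts in the results was not tested. Tyrobp was at 0.202, 0.172, 0.795 and 0.0835 in non-terminal and at 42.8, 18, 1.99 and 0.170 in terminal-marker cells (log2 fold change -3.53, SE 0.58, adjusted p = 0.00163), and without the anti-PD-L1 library its change was -1.28 (adjusted p = 0.0820). Fcer1g (-2.93, SE 0.38, adjusted p = 0.000158) and Ms4a6c (-2.21, SE 0.48, adjusted p = 0.0118) likewise moved to -1.22 (adjusted p = 0.339) and -0.91 (adjusted p = 0.375) without that library.

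Among T cell genes, Gzma differed most firmly. It was at 12.5, 5.57 and 7.22 in the non-terminal cells of the 3 treated libraries and at 37.3, 50.3 and 51.5 in terminal-marker cells (log2 fold change -2.55, SE 0.19, adjusted p = 1.74e-07). Klre1 was at 0.460, 0.636 and 0.376 against 1.92, 3.08 and 1.62 (log2 fold change -2.18, SE 0.26, adjusted p = 8.55e-05). Both calls held without any single library. With at least 4 marker genes, the Gzma call held and that of Klre1 was lost. Gzmb was at 3.68, 5.01 and 3.72 against 5.68, 8.36 and 11.8 (log2 fold change -1.07, SE 0.18, adjusted p = 0.00164), and without PDOX its change was -0.70 and not called. Of 11 tested granule genes, 3 were lower (Gzma, Gzmb and Nkg7) and none higher, with a median of -0.65 against 0.00 over all genes. Nkg7 differed by -0.42 (SE 0.09, adjusted p = 0.00924), Klrk1 by -0.71 (SE 0.16, adjusted p = 0.0191) and Ccl4 by -1.07 (SE 0.18, adjusted p = 0.00175), and these 3 calls were lost without the anti-OX40/CpG library. S1pr5, a sphingosine receptor of circulating effector cells, was at 0.115, 0.0795 and 0.376 against 1.0, 1.23 and 0.895 (log2 fold change -2.37, SE 0.47, adjusted p = 0.00648), and was not called without the anti-OX40/CpG library (-1.82). The calls of Gzmb, Nkg7, Klrk1, Ccl4 and S1pr5 were also lost with at least 4 marker genes, and without the pairing by library.

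Genes of naive and memory cells lay the other way. Dapl1 was at 3.33, 3.86 and 2.09 in non-terminal cells of the treated libraries and at 0.668, 1.71 and 0.128 in terminal-marker cells (log2 fold change 2.02, SE 0.31, adjusted p = 0.00108). Il7r was at 3.51, 4.05 and 3.80 against 0.835, 1.92 and 1.58 (log2 fold change 1.35, SE 0.21, adjusted p = 0.00108), and Ltb, a lymphotoxin gene, at 11, 8.83 and 10.3 against 4.68, 5.41 and 6.26 (log2 fold change 0.85, SE 0.14, adjusted p = 0.00154). The ranges did not overlap for these 3 genes, and the 3 calls held without any single library. All 3 calls were lost without the pairing by library. The Il7r call was also lost with at least 4 marker genes, and the Il7r and Ltb calls without cells with other-lineage UMIs. Ccr7 was at 1.78, 1.67 and 1.38 against 0.835, 0.480 and 0.341 (log2 fold change 1.59, SE 0.30, adjusted p = 0.00483), a call lost without the anti-OX40/CpG or the PDOX library, as were those of Nsg2 (1.94, SE 0.39, adjusted p = 0.00665), Slamf6 (1.26, SE 0.26, adjusted p = 0.00847), Satb1 (1.12, SE 0.24, adjusted p = 0.0109) and Spint2 (1.40, SE 0.34, adjusted p = 0.0308). Tcf7 (0.98, SE 0.21, adjusted p = 0.00925), Ikzf2 (1.37, SE 0.30, adjusted p = 0.0128) and Cd28 (0.89, SE 0.18, adjusted p = 0.00847) were higher too, but not called without PDOX. The calls of Ccr7, Nsg2, Slamf6, Satb1, Spint2, Tcf7, Ikzf2 and Cd28 were also lost without the pairing by library. They were lost as well with at least 4 marker genes, where the Ltb call held. These differences thus depended on the cells with exactly 3 marker genes or on the larger cell number with them. Ppp1r14b (1.64, SE 0.43, adjusted p = 0.0462) was not called when any 1 of the 3 libraries was left out.

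By list, 3 of 8 tested naive and memory-stem transcription factors, 3 of 11 memory-associated genes and 1 of 5 lymph node homing genes were higher and none lower. Effector transcription factors gave 0 calls of 7 tested in edgeR and 0 in DESeq2. With 2.45% of all genes called in edgeR, 0 calls among so few genes do not set the list apart. At an unadjusted p under 0.05 were 3 of the 7, beside 409 of all 3186 genes. Among the 3 was Id2 (log2 fold change -0.40, SE 0.12, adjusted p = 0.136), with levels of 10.9, 9.90 and 14.6 against 11.9, 16.8 and 17.1. Of 12 tested cell cycle genes, 4 were lower (Stmn1, Hmgb2, Hmgn2 and Birc5) and none higher, with a median of -0.91, and only the Stmn1 call held without the PDOX library. Stmn1, a tubulin regulator of dividing cells, was at 2.64, 0.994 and 0.292 against 4.68, 2.67 and 4.39 (log2 fold change -1.81, SE 0.33, adjusted p = 0.00422). Its UMIs were concentrated in few non-terminal cells, with 19 of 25 in 1 cell of the anti-OX40/CpG library. Of the granule and NK receptor genes that were not called, Gzmk had -0.65 (adjusted p = 0.106), Klrc1 -0.64 (adjusted p = 0.119) and Klrd1 -0.41 (adjusted p = 0.164).

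To set the cells beside the CD4 lineage, the same gate was set on CD4+ T cells (at least 1 UMI of Cd4, 0 of Cd8a and Cd8b1), which gave 217 cells, 12, 75 and 127 of them in the 3 treated libraries used. Granzymes, Ccl4, Plac8 and Cd160 were higher in the CD8+ cells, and Cd40lg, Tbc1d4, Tnfrsf4 (which encodes OX40) and Maf were lower. Of 3314 genes tested, 89 (2.69%) were called, 57 (1.72%) higher and 32 (0.966%) lower, while 18.5% of all tested were higher and 16.4% lower in each of the 3 libraries. With ribosomal, mitochondrial and hemoglobin genes kept, 219 were called, and the higher part went from 64.0% to 76.3%. The count was 158 without the anti-PD-L1, 96 without the PDOX and 3 without the anti-OX40/CpG library, so that nearly all calls rested on that library. Without the pairing by library, 40 genes were called.

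Gzma and Plac8 kept their calls without any single library. Gzma was at 12.5, 5.57 and 7.22 in CD8+ and at 0.345, 0.187 and 0.483 in CD4+ cells (log2 fold change 4.36, SE 0.27, adjusted p = 5.37e-09). Plac8 was at 7.13, 4.25 and 5.34 against 0.345, 0.125 and 0.297 (log2 fold change 4.48, SE 0.29, adjusted p = 6.96e-09). The levels of both genes did not overlap between the lineages. Each of the following calls was lost without the anti-OX40/CpG library. Ccl4 differed by 4.89 (SE 0.43, adjusted p = 6.39e-07), Cd160 by 4.01 (SE 0.60, adjusted p = 0.000371), Gzmm by 3.76 (SE 0.42, adjusted p = 1.25e-05), Gzmb by 3.12 (SE 0.29, adjusted p = 9.78e-07) and Nkg7 by 1.54 (SE 0.21, adjusted p = 0.000201). Bcl2 was higher by 1.30 (SE 0.20, adjusted p = 0.000558). The CD8+ cells had less Cd40lg (-3.38), Tbc1d4 (-2.65), Ass1 (-2.09), Nrp1 (-1.94), Tnfrsf4 (-1.92), Maf (-1.82) and Itgb1 (-1.21) than the CD4+ cells. The 6 regulatory T cell markers, which include Tnfrsf4, were together at 1.03, 1.87 and 1.92 in the CD8+ and at 6.56, 4.31 and 4.35 in the CD4+ cells, and both members tested (Izumo1r and Tnfrsf4) were lower in the CD8+ cells; the part of regulatory T cells in the differences was not tested. Effector transcription factors gave 0 calls of 6 tested and naive and memory-stem factors 0 of 8 in edgeR and in DESeq2. With 2.69% of all genes called in edgeR, 0 calls among so few genes do not set these lists apart. At an unadjusted p under 0.05 were 4 of the 6 and 1 of the 8, beside 426 of all 3314 genes. Id2 was at -0.35 (adjusted p = 0.554).

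Within the non-terminal cells, levels by treatment rest on 1 library each and are given as ratios with exact 95% intervals for counting error only. The libraries also differed in marker genes per cell, with 5 or 6 of them in 2 of 20, 18 of 54, 26 of 113 and 43 of 120 non-terminal cells. Id2 and Bcl2 differed along that number, as given above. Levels were not compared between libraries at an equal number of marker genes. Of 2291 genes with at least 50 UMIs, 622 had their highest level in the PDOX library and 455 their lowest.

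The PDOX cells had more Id2 than the anti-PD-L1 (ratio 1.34, 1.12 to 1.61), anti-OX40/CpG (1.48, 1.25 to 1.74) and untreated cells (1.68, 1.22 to 2.37). S100a10 was at 16.0, 28.0, 22.3 and 39.5 UMIs per 10000, with a PDOX to anti-PD-L1 ratio of 1.41 (1.26 to 1.58). Itga4, the integrin alpha-4 chain, was at 1.01, 2.30, 2.74 and 4.38 (PDOX to anti-OX40/CpG ratio 1.60, 1.17 to 2.20). These 3 genes had their highest non-terminal level in the PDOX library. The marker-low cells of the same libraries had S100a10 at 11, 10.4, 9.21 and 10.9 and Itga4 at 2.12, 1.98, 1.84 and 2.03, without that order. Id2 was highest in the PDOX library in marker-low cells too (2.12, 1.83, 1.99 and 2.81), and the ratio of non-terminal to marker-low cells was 4.09, 5.96, 4.98 and 5.21, so that PDOX did not stand above the other treated libraries in it.

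A few chemokine and inhibitory receptor genes, chosen after their values were seen, were highest in the anti-OX40/CpG cells. Ccl3 was at 0.606, 0.115, 4.25 and 0.418, found in 27 of the 113 anti-OX40/CpG cells, with a PDOX to anti-OX40/CpG ratio of 0.0982 (0.0458 to 0.188). Ccl4 was highest there too, with a ratio of 0.303 (0.200 to 0.447). Pdcd1, which encodes PD-1, was at 0, 0.172, 1.31 and 0.459 (ratio 0.350, 0.160 to 0.710). Lag3 was at 0.202, 0.402, 2.03 and 1.17 (ratio 0.577, 0.350 to 0.932) and Tox, a factor of chronically stimulated cells, at 0.606, 0.402, 2.27 and 1.04 (ratio 0.461, 0.276 to 0.749). The highest of the 4 levels was that of the anti-OX40/CpG library in all 5 genes. Other genes of the chemokine and cytokine list did not share this order, with Xcl1 at 1.82, 0.919, 0.716 and 0.334 and Ltb at 10.1, 11, 8.83 and 10.3. The terminal-marker cells had their highest Pdcd1 (0, 0.501, 1.37 and 0.554), Lag3 (0, 0.418, 3.29 and 0.724) and Tox (0, 1.17, 2.74 and 0.426) in the same library, and marker-low cells had at most 0.0355 of Pdcd1 and 0.0711 of Lag3. Tox was called higher in non-terminal than in marker-low cells at a log2 fold change of 0.78 (adjusted p = 0.0111), which became 0.23 (adjusted p = 0.769) without the anti-OX40/CpG library.

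**Figure D5:**
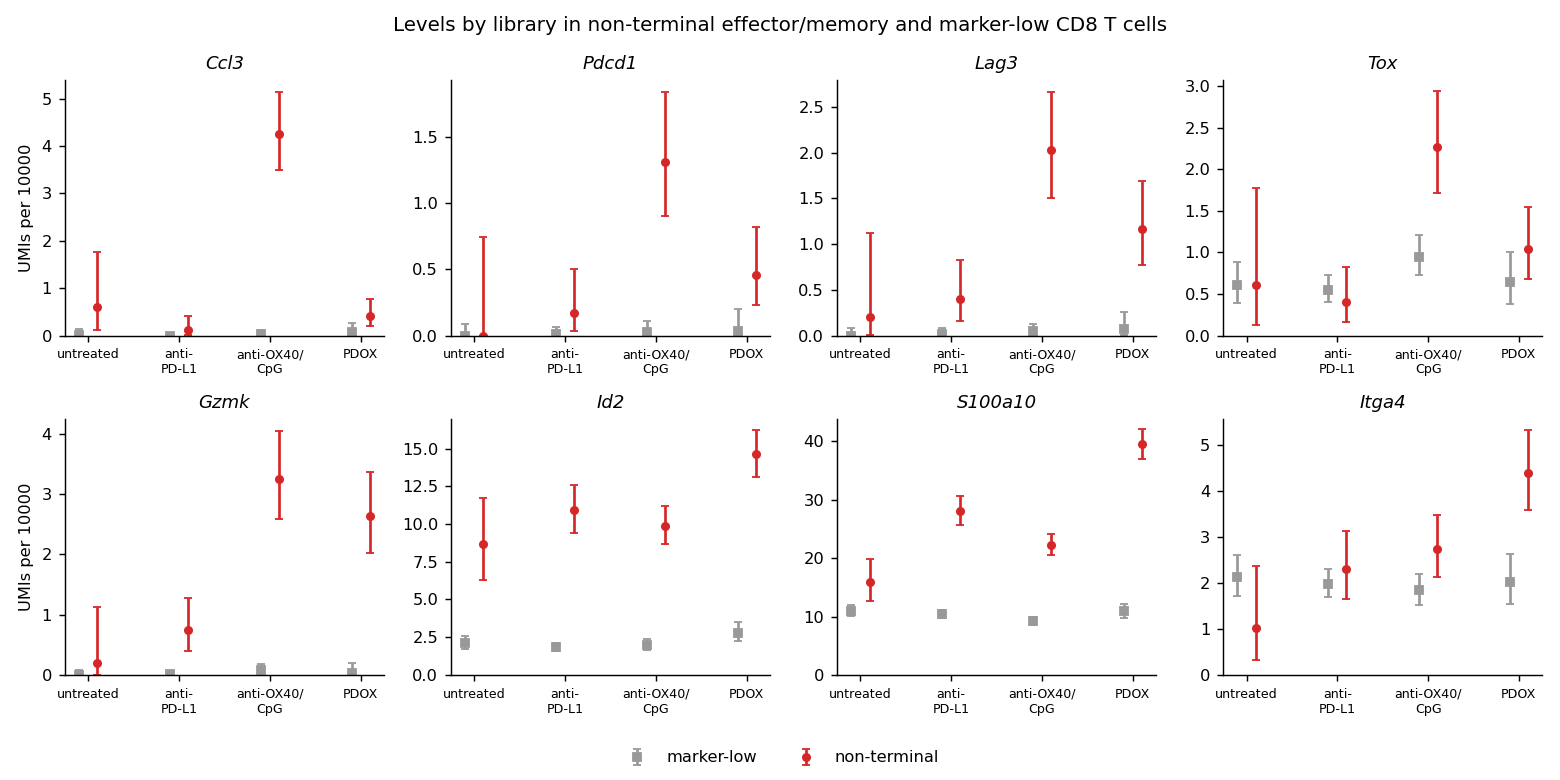
Level (UMIs per 10000) of 8 genes in marker-low and non-terminal cells by treatment; each point is 1 library with its exact 95% Poisson interval for counting error only. Among non-terminal cells, Ccl3, Pdcd1, Lag3, Tox and Gzmk are highest in the anti-OX40/CpG library, and Id2, S100a10 and Itga4 in the PDOX library.

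In the plot of levels by treatment, the marker-low cells stay low in Ccl3, Pdcd1, Lag3 and Gzmk in each library. Gzmk was higher in the libraries with anti-OX40/CpG, at 0.202, 0.747, 3.26 and 2.63, with a PDOX to anti-PD-L1 ratio of 3.52 (1.92 to 6.97) and a PDOX to anti-OX40/CpG ratio of 0.807 (0.572 to 1.13). Gzma had its highest level in the anti-PD-L1 library (PDOX to anti-PD-L1 ratio 0.577, 0.470 to 0.707), where 1 cell held 48.2% of its UMIs. Bcl2 was lower in the 3 treated libraries than in the untreated one, with ratios to untreated of 0.444 (0.307 to 0.646), 0.468 (0.334 to 0.666) and 0.442 (0.313 to 0.632), on 20 untreated cells. Of these 20 cells, 2 had 5 or 6 marker genes, the part of the range where Bcl2 was lowest. The part of this in the Bcl2 ratios was not tested.

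Among genes with at least 50 UMIs, the 5 with the highest ratio of PDOX to the next library were Glmp (2.18, 1.11 to 4.60), Snx1 (2.0, 0.619 to 10.3), Bclaf1 (1.97, 1.04 to 3.94), Mtch1 (1.96, 0.920 to 4.54) and Klhl6 (1.90, 1.20 to 3.04). The 5 with the lowest ratio to the next lowest library were Gm10076 (0.227, 0.135 to 0.382), Stmn1 (0.294, 0.107 to 0.699), Gm10020 (0.396, 0.224 to 0.674), Lsm7 (0.413, 0.0883 to 2.56) and Erdr1 (0.424, 0.141 to 1.17). The place of Stmn1 rests on 1 cell of the anti-OX40/CpG library, since 19 of its 25 UMIs there were in that cell and the other cells held 6, against 7 in the 120 PDOX cells. Gm10076 stood at 6.26, 6.78, 37.6 and 1.42 in non-terminal and at 6.39, 8.98, 49.8 and 1.74 in marker-low cells, so that its differences between libraries were of the same order in both. Erdr1 in marker-low cells (1.68, 1.37, 3.07 and 0.782) and Gm10020 (4.03, 4.83, 3.39 and 1.71) were likewise lowest in the PDOX library.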

How the data were processed

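Single-cell libraries of enriched blood T cells (10x Chromium 3′) were used as deposited: the authors ran Cell Ranger, and the deposited files hold raw UMI counts per gene and cell, without normalization. The submitters' processing notes name mm10 and Seurat 2. The annotation and the calling of cells are not given in the sources used here. The label OX40 was read as anti-OX40 with CpG, from the study's regimen.

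From these counts, 13 mitochondrial, 109 ribosomal and 8 hemoglobin genes of 27998 were left out of levels, gene numbers and tests. Sums of the counts over each subset of a library were tested with edgeR 4.0.16 in R 4.3.3 (TMM, filterByExpr, quasi-likelihood test, Benjamini-Hochberg adjustment, threshold 0.05). The library was a block, because both subsets came from the same library and mouse; a library entered with at least 10 cells of each subset. P-values thus set the difference between subsets within a library against its spread over 3 or 4 libraries of different treatment. The test draws its estimate of that spread partly from all genes together, so that small p-values do not stand for many replicates. Levels are UMIs per 10000, and intervals (95%, exact) cover counting error only. A gene had to reach a minimal count over the subsets to be tested, so that genes near 0 in both were not tested. Doublets were not removed: Scrublet (scanpy 1.11.5) marked 20 cells (0.379%), and whether the caller worked on these libraries was not tested.

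The members, marker lists and named genes were chosen with earlier results of these data known. Named were the genes of the gate. Of each test, the largest increases and decreases were named (10 and 10 against marker-low cells, 5 and 5 otherwise) among genes called, with 1 direction in all libraries fitted and at least 50 UMIs; genes of the lists served as examples. Of the treatments, the 5 highest and 5 lowest PDOX ratios were named. The genes set beside them for S100a10, Itga4, Ccl3, Pdcd1, Lag3, Tox, Gzmk and Bcl2 by treatment, and the levels by number of marker genes, were chosen after their values were seen. Alternatives were DESeq2 1.42.0, its size factors in edgeR, no filter, the excluded genes kept, no block, cells thinned to 750 UMIs, at least 4 marker genes, cells without UMIs of other lineages or with top doublet scores left out, other comparison cells, and each library left out; leaving out cells with at least 2 markers of another lineage was added after seeing the data. The scripts were tested on simulated data. Some genes, and 1 planned comparison, are not reported here.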

Additional observations from a re-analysis of the deposited data

How the results depend on the processing

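The counts of genes called fell with DESeq2 to 226 against marker-low cells, 28 against terminal-marker cells and 25 against CD4+ cells. Without the replicate block that pairs subsets of 1 library, they were 422, 2 and 40, so that the latter comparisons rest on the pairing, which comes from the design. Thinned to 750 UMIs, they were 311, 6 and 3, and without any cell with other-lineage UMIs 131, 1 and 4, in both cases with fewer cells and, except for the thinned comparison with terminal-marker cells, fewer libraries. At least 4 marker genes gave 8 against terminal-marker cells. No filter on low counts gave 126 against terminal-marker cells. With the excluded genes kept, 182 genes were called against terminal-marker and 219 against CD4+ cells. Leaving out 1 library gave 355 to 627, 36 to 123 and 3 to 158 calls. The other alternatives stayed within 1.5 times the reported counts, among them those without top doublet scores (556, 62 and 132) and without cells with 2 markers of another lineage (414, 64 and 84).

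The share of non-terminal cells moved to 2.43% when thinned in the untreated library. It was 12.0%, 16.2%, 30.5% and 33.6% with at least 2 marker genes, 3.70%, 5.97%, 11.7% and 19.5% with at least 4, and 2.94%, 4.66%, 10.2% and 20.7% without cells with other-lineage UMIs. Without cells with 2 markers of another lineage, it was 5.74% in the anti-PD-L1 library. Where UMIs of both Cd8a and Cd8b1 were required, the share was 7.41%, 9.98%, 19.1% and 25.8%. PDOX was highest under each of these settings.

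Of the values for single genes, 6 turned direction. Without cells with other-lineage UMIs, Klrd1 was at -0.21 against marker-low cells and Klrk1 at -0.050 against CD4+ cells. Without the anti-OX40/CpG library, H2-Aa was at -0.29 against marker-low cells, and up to 1.80 without another library. Thinned, Ccl4 was at 0.58 and Lgals3 at 0.011 against terminal-marker cells and Bcl2 at -0.62 against CD4+ cells. The causes were not tested. Of the list and named genes called, 73 of 92 against marker-low cells, 8 of 32 against terminal-marker cells and 2 of 40 against CD4+ cells kept their call without any single library. Depth limits the rule itself, since a cell with few UMIs can miss a marker or a terminal-effector transcript.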
